A study of Mus musculus with 12 samples.

Results

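The itch-related receptor genes Il31ra, Osmr, Lpar3, Htr1f, Hrh1 and Cysltr2, which lie outside the Mrgpr family, were followed through 3 preparations of mouse dorsal root ganglion (DRG). The 6 members were taken by gene name from a table of 24490 genes, and each name occurred once. Each is a receptor that sensory neurons can carry for a signal made in the skin or by immune cells, and the Mrgpr receptors, a separate family, were left out by the rule.

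RNA was sequenced from 12 samples, 4 of each preparation, all made from adult C57Bl/6 mice, with ganglia from every spinal level, and all described as male in the methods of the study. An intact sample was snap frozen ex vivo and came from 1 mouse. A dissociated, unsorted sample came from 2 mice and was made by digestion with dispase, collagenase and DNAse. A MACS-sorted sample pooled 8 mice, and its cells were what passed a magnetic column after non-neuronal cells had been bound by an antibody cocktail. Because animals were pooled, the spread over sorted and unsorted samples is a spread between pools. The design names the 4 samples of a group as biological replicates, and p-values measure the spread between these samples alone. Unsorted against intact samples asks what dissociation does to the RNA profile, and MACS-sorted against unsorted samples asks what sorting enriches.

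Itch is carried from the skin by small sensory neurons of the DRG that detect pruritogens through surface receptors. The receptor for interleukin-31, a T cell cytokine, is a dimer of the products of Il31ra and Osmr, whereas the Osmr product pairs with the Il6st product gp130 to bind oncostatin M, and both dimers signal through JAK kinases and STAT factors. The other members are G protein-coupled receptors: Lpar3 for lysophosphatidic acid, Htr1f for serotonin, Hrh1 for histamine and Cysltr2 for cysteinyl leukotrienes. In mice, Il31ra, Osmr, Htr1f and Cysltr2 are known from single-neuron studies as genes of pruriceptors that also make somatostatin (Sst), natriuretic peptide B (Nppb) and neurotensin (Nts), and Lpar3 is known from neurons that make Mrgprd.

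All coordinates are of the mouse build mm10. Il31ra lay on chromosome 13 from 112522807 to 112580662, and its neighbour was Il6st, from 112464070 to 112506860, with a gap of 15946 bases and 0 listed genes between them. Osmr lay on chromosome 15 from 6813577 to 6874313 and Lpar3 on chromosome 3 from 146220961 to 146286214. Htr1f lay on chromosome 16 from 64924729 to 65105784, Hrh1 on chromosome 6 from 114397936 to 114483296 and Cysltr2 on chromosome 14 from 73029128 to 73049114. The 250 bases before the start of Il31ra, Cysltr2, Osmr and Lpar3 are shown here, because the profiles of the first pair over the samples were the closest to each other, Osmr encodes the partner of the first and of the members Lpar3 had the profile farthest from that of Il31ra. The sequences are those of RefSeq on GRCm38.p6, the same assembly as mm10, each written 5′ to 3′ on the strand of its gene. They cover chr13:112580663-112580912 on the minus strand for Il31ra, chr14:73049115-73049364 on the minus strand for Cysltr2, chr15:6874314-6874563 on the minus strand for Osmr and chr3:146220711-146220960 on the plus strand for Lpar3. Capitals mark the 1 match to TTCNNNGAA, the core that STAT factors recognise, which was searched on both strands.
Il31ra: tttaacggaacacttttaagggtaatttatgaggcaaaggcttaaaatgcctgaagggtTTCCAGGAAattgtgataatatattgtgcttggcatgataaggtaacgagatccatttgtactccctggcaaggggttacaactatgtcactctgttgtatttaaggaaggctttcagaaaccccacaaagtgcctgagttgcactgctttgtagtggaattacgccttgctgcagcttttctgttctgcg
Cysltr2: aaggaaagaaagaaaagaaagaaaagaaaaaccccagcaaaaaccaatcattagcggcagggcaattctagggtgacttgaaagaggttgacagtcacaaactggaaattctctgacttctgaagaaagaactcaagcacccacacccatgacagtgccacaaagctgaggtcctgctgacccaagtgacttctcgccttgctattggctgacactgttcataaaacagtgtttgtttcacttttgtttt
Osmr: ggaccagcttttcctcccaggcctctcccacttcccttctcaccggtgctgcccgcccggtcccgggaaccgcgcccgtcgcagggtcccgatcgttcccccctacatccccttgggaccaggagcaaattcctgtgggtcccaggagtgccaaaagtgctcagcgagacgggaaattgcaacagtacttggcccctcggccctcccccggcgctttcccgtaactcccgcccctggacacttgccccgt
Lpar3: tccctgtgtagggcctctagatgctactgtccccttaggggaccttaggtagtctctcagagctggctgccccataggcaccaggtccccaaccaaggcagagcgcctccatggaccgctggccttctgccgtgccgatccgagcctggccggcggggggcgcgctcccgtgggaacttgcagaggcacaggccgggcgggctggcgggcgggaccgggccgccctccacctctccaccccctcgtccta

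The letters TTCNNNGAA occurred in 7.02% of the 32851 promoter windows of this length, which belong to 27025 genes. Among the members, the window of Il31ra held them, as TTCCAGGAA from base -191 to base -183 before the start, and the windows of the other members did not. The core of RUNX factors, searched as TGTGGT and TGCGGT on both strands with no overlap with the STAT core, occurred in 18.6% of all windows and in none of the windows printed above. Of the members it was found only for Hrh1, which has 4 windows, as TGCGGT from -200 to -195 in the first window and as ACCGCA from -141 to -136 in the second. A match is a run of letters and not a bound site. In base composition, the Il31ra and Cysltr2 windows were AT-rich, at 42% and 42.8% GC with 4 and 2 CpG, beside medians of 52.4% GC and 6 CpG over all windows. The Osmr window had 66% GC and 18 CpG, and that of Lpar3 had 69.6% GC and 17 CpG. Htr1f lay between, at 49.2% GC and 7 CpG.

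Expression was measured as FPKM, in which the fragments of a gene are divided by its transcript length and by the mapped total of the sample, so that levels of different genes can be set beside each other. Depth, estimated from the step between low values, had a median of about 18100000 fragments over the intact samples, with 16600000 in unsorted DRG and 14850000 in sorted DRG. In the sample with the lowest value, this gives about 658 fragments for Osmr and 735 for Lpar3, 284 for Il31ra, 86 for Cysltr2, 50 for Htr1f and 41 for Hrh1, so counting error was largest for Htr1f and Hrh1. In MACS-sorted against unsorted samples, all 9 large-diameter neuron markers and all 8 satellite glia markers fell and 8 of 10 small-diameter nociceptor markers rose, by limma at an adjusted p under 0.05. Over all genes tested, 27.7% fell and 18.8% rose. The samples were mixtures of cells, in which fewer cells of a type and less RNA per cell cannot be told apart. The summed level of red blood cell genes was 1692 to 15409 FPKM in sorted and 115 to 402 FPKM in unsorted samples. Unsorted samples 1 and 2 were close to each other in summed levels. Their satellite glia sums were 2857 and 2850 FPKM, beside 2444 and 2276 in unsorted samples 3 and 4. The labels do not say whether samples 1 and 2 share material, and fits with them averaged are among the alternatives. Intact replicate 1 stood apart, with 45.9 FPKM of Nppb beside 17.3 to 20.3 in the other intact samples and summed levels of 946 FPKM of fibroblast and 68.2 FPKM of macrophage markers beside 499 to 592 and 33.1 to 35.6, but its Il31ra, Osmr, Htr1f and Cysltr2 were the lowest of the group and its Lpar3 and Hrh1 the highest.

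**Figure D1:**
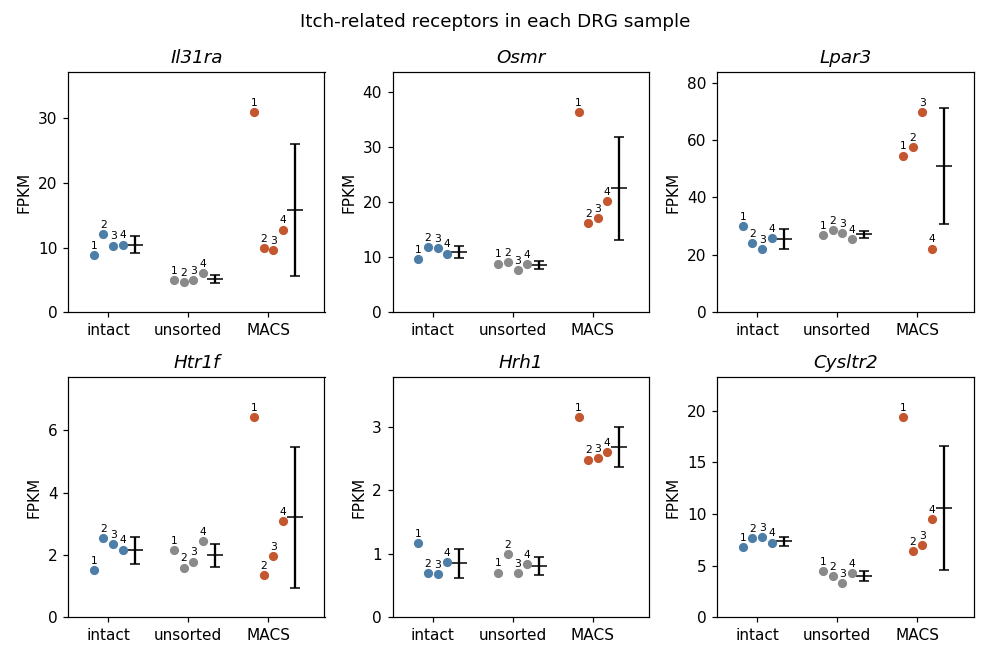
Expression of the 6 receptor genes in FPKM (vertical axes, linear, a separate scale for each gene) in intact, dissociated unsorted and MACS-sorted DRG; points are samples with their replicate numbers, and bars give the mean and SD of 4 samples. Hrh1 was higher in every sorted sample than in any other, whereas sorted replicate 1 stood above the other sorted samples for Il31ra (31.0 FPKM), Osmr, Htr1f and Cysltr2, and sorted replicate 4 below them for Lpar3 (22.2 FPKM).

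The order of the 6 receptors by mean FPKM was the same in the 3 preparations: Lpar3, Osmr, Il31ra, Cysltr2, Htr1f and Hrh1, from high to low. In intact DRG, Lpar3 was at 25.5 ± 3.39 FPKM (SD, n = 4), Osmr at 11.0 ± 1.05, Il31ra at 10.4 ± 1.33, Cysltr2 at 7.37 ± 0.451, Htr1f at 2.15 ± 0.442 and Hrh1 at 0.854 ± 0.226. Osmr and Il31ra had overlapping ranges there, with Osmr the higher in 3 of 4 samples, and all other neighbours in the order were apart. In unsorted DRG the ranges of all neighbours were apart. In sorted DRG the ranges of all neighbours overlapped, but within each of the 4 sorted samples Lpar3 exceeded Osmr, Osmr exceeded Il31ra, Il31ra exceeded Cysltr2 and Cysltr2 exceeded Htr1f. The last pair, Htr1f and Hrh1, kept the order in 2 of 4 sorted samples. A level above 5 FPKM in all 4 samples, the limit by which the study took a gene as expressed, was reached by 4 members in intact DRG, by 4 in sorted DRG and by 2, Osmr and Lpar3, in unsorted DRG. In unsorted DRG, Il31ra was above 5 FPKM in 1 of 4 samples and Cysltr2 in 0.

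Il31ra, the subunit that binds interleukin-31, was lower after dissociation and higher after sorting. Its expression was 8.89, 12.1, 10.3 and 10.5 FPKM in intact replicates 1 to 4, then 4.93, 4.69, 4.97 and 6.02 FPKM in the unsorted samples and 31.0, 9.91, 9.59 and 12.8 FPKM in the sorted samples. Each unsorted sample lay below each intact and each sorted sample, while the sorted and intact ranges overlapped. From intact to unsorted DRG the log2-fold change was -1.0 by limma, with a standard error of 0.11, an adjusted p of 0.0016 and group means of 10.4 and 5.16 FPKM. From unsorted to sorted DRG it was 1.42 (standard error 0.33, adjusted p = 0.0054 by limma), with 3.07 times the mean, and without sorted replicate 1 it was 1.04 (adjusted p = 3.4e-04). Sorted against intact samples gave 0.42 (95% confidence interval -0.32 to 1.16, adjusted p = 0.36 by limma), with 2 of the 4 sorted samples above all intact samples.

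Osmr, the shared signalling subunit of the interleukin-31 and oncostatin M receptors, rose with sorting and had a smaller difference after dissociation. Its levels were 9.61, 11.9, 11.6 and 10.7 FPKM in intact samples 1 to 4, with 8.83, 9.15, 7.62 and 8.77 FPKM in unsorted and 36.4, 16.3, 17.1 and 20.2 FPKM in sorted samples. None of the 3 preparations overlapped, with sorted samples highest and unsorted samples lowest. Sorted against unsorted samples differed by 1.30 on the log2 scale (standard error 0.22, adjusted p = 0.0011 by limma), and sorted against intact samples by 0.96 (standard error 0.23, adjusted p = 0.0102). For unsorted against intact samples the difference was -0.35 (standard error 0.092, adjusted p = 0.0287 by limma), which misses the study's fold criterion, and the adjusted p was above the threshold in 7 of the 8 fits that each left out 1 sample, with 0.0698 as the highest.

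Cysltr2, the second receptor for cysteinyl leukotrienes, differed between groups in the same directions as Il31ra. It measured 6.78, 7.71, 7.74 and 7.24 FPKM in intact samples 1 to 4, against 4.45, 4.03, 3.31 and 4.26 FPKM in unsorted samples and 19.4, 6.40, 7.03 and 9.50 FPKM in sorted samples. As for Il31ra, the unsorted samples were all below both other groups, and sorted and intact samples overlapped. By limma it fell by 0.87 on the log2 scale from intact to unsorted DRG (standard error 0.10, adjusted p = 0.0019) and rose by 1.24 from unsorted to sorted DRG (standard error 0.30, adjusted p = 0.0077). Sorted against intact samples gave 0.37 (95% confidence interval -0.30 to 1.04, adjusted p = 0.37 by limma).

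Hrh1, the histamine receptor that couples to Gq, was the member with the lowest level, and its difference with sorting had the smallest standard error. Intact samples 1 to 4 had 1.17, 0.695, 0.683 and 0.871 FPKM, unsorted samples 0.707, 1.00, 0.693 and 0.845 FPKM and sorted samples 3.15, 2.49, 2.51 and 2.60 FPKM. Sorted samples lay above all others, and intact and unsorted samples overlapped. The log2-fold change of sorted against unsorted samples was 1.62 (standard error 0.18, adjusted p = 7.6e-05 by limma), and that against intact samples was 1.57 (standard error 0.22, adjusted p = 4.5e-04). Hrh1 averaged under 1 FPKM in unsorted and in intact samples, so it passed the filter of these fits only through its sorted values. Had it been lower in sorted samples, it would not have been tested. Without the filter, limma gave an adjusted p of 1.5e-04 against unsorted and 7.0e-04 against intact samples. With a mean of 2.69 ± 0.314 FPKM (SD, n = 4) in sorted DRG, Hrh1 was under the 5 FPKM that the study required of the higher group. For unsorted against intact samples the mean was under the 1 FPKM asked of genes in the fits here. Without that filter limma gave -0.05 (adjusted p = 0.887), and the exact two-sided permutation test over the 8 samples gave p = 0.714.

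Htr1f, a serotonin receptor that couples to Gi, did not pass the test in any comparison. It was at 1.52, 2.55, 2.35 and 2.17 FPKM in intact samples 1 to 4, at 2.15, 1.60, 1.79 and 2.44 FPKM in unsorted samples and at 6.42, 1.35, 1.97 and 3.08 FPKM in sorted samples. The sorted group held both the lowest and the highest of the 12 values. Sorted against unsorted samples gave a log2-fold change of 0.44 (95% confidence interval -0.46 to 1.34, adjusted p = 0.40 by limma), and 0.03 without sorted replicate 1. Unsorted against intact samples gave -0.10 (95% confidence interval -0.52 to 0.33, adjusted p = 0.74 by limma).

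Lpar3, a receptor for lysophosphatidic acid, was the most abundant member and had similar values in intact and unsorted DRG. Its values were 30.0, 24.1, 22.0 and 25.8 FPKM in intact samples 1 to 4, beside 26.9, 28.5, 27.4 and 25.5 FPKM in unsorted and 54.6, 57.5, 69.8 and 22.2 FPKM in sorted samples. Sorted replicates 1 to 3 lay above all other samples, and sorted replicate 4 lay below all unsorted samples. On the log2 scale, sorted against unsorted samples differed by 0.79 (95% confidence interval 0.13 to 1.46, adjusted p = 0.0525 by limma), and by 1.15 without sorted replicate 4 (adjusted p = 1.4e-05). The same contrast against intact samples gave 0.89 (95% confidence interval 0.19 to 1.58, adjusted p = 0.0502 by limma), and 1.25 without sorted replicate 4. Unsorted against intact samples differed by 0.10 (95% confidence interval -0.12 to 0.32, adjusted p = 0.50).

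Counted together, 4 of the 6 members (Il31ra, Osmr, Hrh1 and Cysltr2) passed the test as higher in sorted than in unsorted samples, where 18.8% of the 12038 genes tested did, and 0 were lower, where 27.7% of genes were. Hrh1 passed the filter of 1 FPKM only through its sorted values, so it could hardly have counted as lower in this comparison or against intact samples. By the study's criteria, which also ask for a log2 ratio of means beyond 0.5 and more than 5 FPKM on average in whichever group is higher, 3 members were higher, with 8.15% of all genes as background. The study applied its criteria to CuffDiff results and then took out blood genes that were higher in sorted samples, whereas the share here keeps them. For those same 4 members all 4 sorted samples lay above all 4 unsorted samples, as they did for 18.4% of genes. The median log2-fold change was 1.27 over the members and -0.04 over all genes tested. Scaling moved the background, to 33.0% higher and 22.6% lower under quantile normalization and to 12.5% higher and 36.0% lower when scaled to pan-neuronal genes, and the 4 members passed under both. The pan-neuronal list was itself mixed in this comparison, with 3 of its 8 genes higher and 2 lower. For unsorted against intact samples, 3 of 5 members tested were lower, beside 7.79% of 12392 genes, and 2 of them by the study's criteria, beside 2.76%. Osmr, the third, lost its call in 7 of the 8 fits that each left out 1 sample. The share of all genes lower was itself unsteady, at 13.6% without intact replicate 1, between 4.01% and 6.24% without any one of the other samples, and 4.37% with all 12 samples. The median log2-fold changes were -0.35 over the members and 0.01 over all genes. Sorted against intact samples gave 2 of 6 members as higher, Osmr and Hrh1, where 14.1% of 12234 genes were, and 1, Osmr, by the study's criteria, where 7.54% were. Osmr and Hrh1 were also the members with all 4 sorted above all 4 intact samples, which held for 15.6% of genes. These comparisons share samples, so their values are set side by side and not combined.

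**Figure D2:**
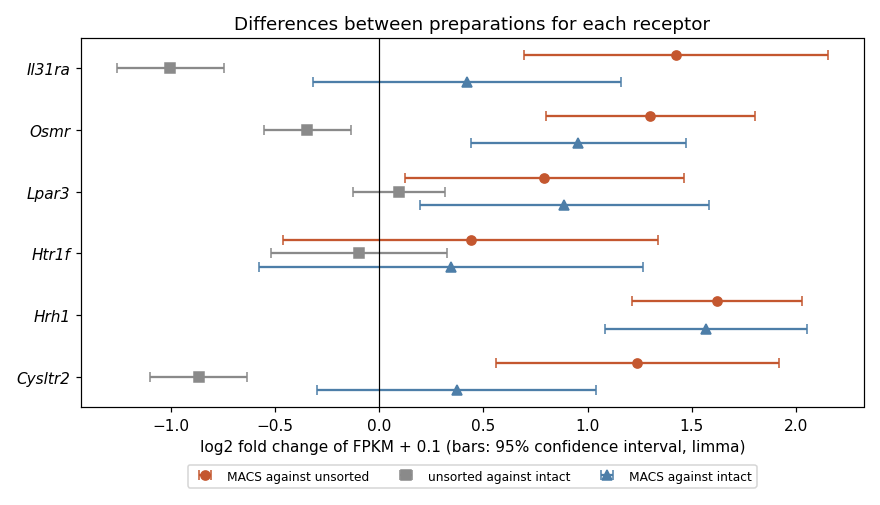
Log2-fold changes of FPKM + 0.1 for the 6 receptor genes (rows) in 3 comparisons; points are differences of group means over 4 samples each, and bars their 95% confidence intervals from limma. Il31ra and Cysltr2 lie left of 0 for unsorted against intact samples (-1.0 and -0.87) and right of 0 for sorted against unsorted samples (1.42 and 1.24), while Hrh1 has no value for unsorted against intact samples because its mean was under 1 FPKM there.

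Beside the falls of Il31ra and Cysltr2 from intact to unsorted samples, markers of several non-neuronal cells fell too: 6 of 7 fibroblast markers, 6 of 8 macrophage markers and 2 of 3 mast cell markers tested. Other lists moved the opposite way in this comparison: 7 of 7 endothelial markers, 3 of 8 satellite glia markers and 6 of 9 large-diameter neuron markers were higher, with 0 lower in each, and of 6 pericyte and smooth muscle markers 2 were higher and 1 lower. Of 10 small-diameter nociceptor markers 3 were higher and 0 lower, and none of 7 Schwann cell markers passed in either direction. These counts stand beside 14.8% higher and 7.79% lower over all genes tested. Summed over the macrophage list, levels ranged from 33.1 to 68.2 FPKM in intact samples, from 11.2 to 22.2 FPKM in unsorted samples and from 0.872 to 3.75 FPKM in sorted samples. For fibroblast genes the sums were 499 to 946 FPKM, 169 to 340 and 7.62 to 32.5, and for mast cell genes 5.43 to 8.43, 2.03 to 4.36 and 0.0821 to 0.840, with Tpsb2, Fcer1a and Mrgprb2 at 0 in all sorted samples. All 3 lists were lowest in the sorted samples, in which lists of neuronal and glial markers also differed from unsorted samples. Pan-neuronal markers rose in unsorted samples, 4 of 8 by the test with none lower, and their sum was 3536 to 3769 FPKM in intact and 4223 to 4554 FPKM in unsorted samples. Scaled to pan-neuronal genes, the log2-fold change of unsorted against intact samples was -1.27 for Il31ra, -1.14 for Cysltr2 and -0.62 for Osmr. This scaling lowered all genes alike, with a median of -0.26 over all genes and 33.4% of them lower, so the members' falls grew by the same shift. The part of any of these cell types in the results was not tested.

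Partners of the interleukin-31 and oncostatin M receptors had smaller log2-fold changes with sorting than Il31ra and Osmr. Il6st, which encodes gp130, was at 78.8 ± 12.1 FPKM in intact, 104 ± 1.29 in unsorted and 127 ± 29.0 in sorted samples (SD, n = 4). Unsorted against intact samples gave 0.42 on the log2 scale (adjusted p = 0.0284 by limma), a call lost in 5 of the 8 fits that each left out 1 sample, with all 12 samples (0.0932), and under quantile normalization (0.0984), removal of red blood cell genes (0.111), averaging of unsorted samples 1 and 2 (0.0682) and scaling to pan-neuronal genes (0.15, adjusted p = 0.204). Sorted against unsorted samples gave 0.25 (adjusted p = 0.192), or 0.41 without sorted replicate 4 (adjusted p = 0.0044). In the list of partners and signalling genes, 4 of 10 tested rose with sorting and 1 fell, beside 18.8% and 27.7% of all genes. Those that rose were the receptor subunit Lifr (0.44), the kinase Tyk2 (0.54) and the transcription factors Stat3 (0.34) and Stat5b (0.34), and the phosphatase Ptpn11 (-0.36) was the one that fell. Socs3, a feedback inhibitor of this pathway that its STAT factors induce, rose from 3.27 ± 0.659 FPKM in intact to 29.6 ± 21.7 in unsorted samples (log2-fold change 2.83, adjusted p = 0.0066 by limma). Its unsorted values were 11.2, 12.4, 38.6 and 56.1 FPKM, and in sorted samples it was at 8.81 to 15.8 FPKM. The ligand genes were low or listed at 0. Il31 was listed at 0 in all 12 samples, Osm did not exceed 0.548 FPKM, and 0 of 6 ligand genes were high enough to be tested.

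Ratios between a member and a partner or relative were taken within each sample, from FPKM + 0.1 of each gene, so that the scaling between samples cancels. The ratio of Il31ra to Osmr was 0.926, 1.02, 0.886 and 0.982 in intact samples 1 to 4, 0.563, 0.518, 0.657 and 0.691 in unsorted samples and 0.852, 0.612, 0.563 and 0.634 in sorted samples. Intact samples were therefore close to equal levels of both subunits and did not overlap with the unsorted samples. The difference of the mean log2 ratio was -0.66 for unsorted against intact samples (exact two-sided permutation p = 0.029, the smallest that 4 against 4 samples allow, adjusted p = 0.049 over 12 ratio tests). For sorted against unsorted samples it was 0.12 (exact permutation p = 0.571). Osmr relative to Il6st fell by 0.76 from intact to unsorted samples and rose by 1.05 from unsorted to sorted samples, with exact permutation p = 0.029 and adjusted p = 0.049 in both. Every ratio test at this smallest p has the same adjusted p. That value depends on how many of the 12 tests reached the smallest p, so it is not separate evidence for each ratio.

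**Figure D3:**
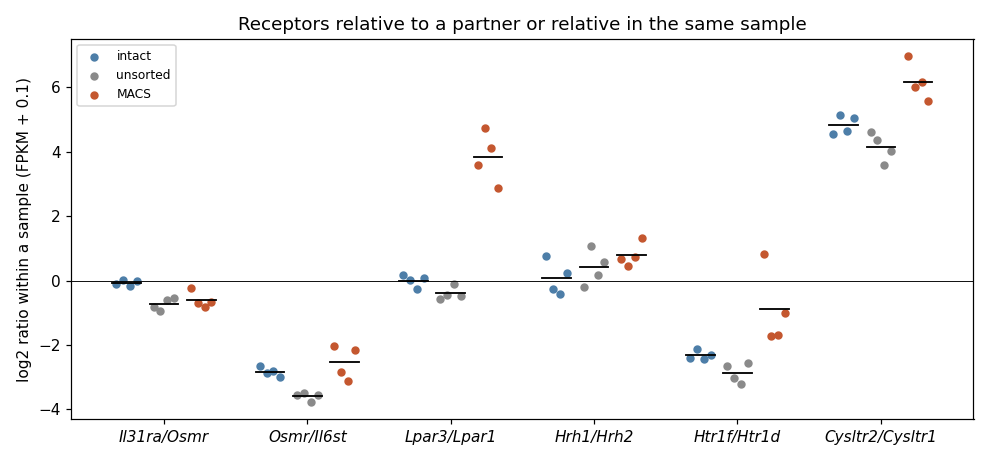
Log2 ratio of each receptor gene to a partner or relative within the same sample (FPKM + 0.1 each), by preparation; points are samples and lines the mean of 4. Lpar3 relative to Lpar1 moved furthest with sorting (4.23 on the log2 scale), and the ratio of Il31ra to Osmr was near 0 in intact samples and lower in all unsorted samples.

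The lysophosphatidic acid receptors diverged with sorting. Lpar1, a receptor of the same ligand, was at 26.4, 24.0, 26.6 and 24.6 FPKM in intact, 39.8, 38.5, 29.6 and 35.8 FPKM in unsorted and 4.43, 2.07, 3.92 and 2.93 FPKM in sorted samples. It thus stood near Lpar3 in ganglia and far below it after sorting, with a log2-fold change of -3.44 (adjusted p = 2.4e-06 by limma) against unsorted samples. The ratio of Lpar3 to Lpar1 ranged from 0.831 to 1.14 over intact samples, from 0.677 to 0.927 over unsorted samples and from 7.35 to 26.6 over sorted samples, a difference of 4.23 on the log2 scale against unsorted samples (exact permutation p = 0.029, adjusted p = 0.049). Lpar5 rose from 6.65 ± 1.30 to 17.4 ± 4.82 FPKM (SD, n = 4), a log2-fold change of 1.35 (adjusted p = 5.4e-04 by limma). Enpp2, which encodes the enzyme autotaxin that makes lysophosphatidic acid, fell by 0.74 on the log2 scale. In all, 1 of 4 tested genes of this list other than Lpar3 rose and 2 fell, beside 18.8% and 27.7% of all genes. Satellite glia markers, summed, were at 2276 to 2857 FPKM in unsorted and 90.1 to 205 FPKM in sorted samples beside this fall of Lpar1, and their part in it was not tested.

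Serotonin receptors other than Htr1f moved in both directions with sorting, at shares to be read beside the 18.8% higher and 27.7% lower of all genes. Of 9 tested, 2 rose, Htr4 by 0.87 and Htr5b by 0.66 on the log2 scale, and 4 fell, Htr7 (-3.17), the channel subunits Htr3a (-2.37) and Htr3b (-1.34) and Htr1d (-1.53). Htr1d, the relative of Htr1f that is the more abundant in ganglia, was at 8.53 to 13.1 FPKM in intact, 13.7 to 17.4 FPKM in unsorted and 3.55 to 6.50 FPKM in sorted samples. The ratio of Htr1f to Htr1d was 0.108 to 0.168 in unsorted samples and 1.79, 0.303, 0.313 and 0.496 in sorted samples 1 to 4, so Htr1f exceeded Htr1d in sorted replicate 1 alone. The difference was 1.97 on the log2 scale (exact permutation p = 0.029, adjusted p = 0.049), and 1.40 without that sample. All 9 large-diameter neuron markers fell beside these receptors, and the part of those neurons was not tested.

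Of the other histamine genes, Hrh2 was at 0.594 ± 0.166 FPKM in unsorted and 1.55 ± 0.429 FPKM in sorted samples (SD, n = 4; log2-fold change 1.23, adjusted p = 0.0062 by limma), and Hnmt, the enzyme that methylates histamine, fell by 1.80 on the log2 scale. Hrh2 passed the filter of 1 FPKM only through its sorted values, and it could be tested in only 6 of the 8 fits that each left out 1 sample. Hrh4 was listed at 0 in all samples. The ratio of Hrh1 to Hrh2 had overlapping ranges in sorted and unsorted samples, with a difference of 0.39 on the log2 scale (exact permutation p = 0.286). Of the leukotriene genes, Cysltr1, the other receptor of this ligand, did not exceed 0.212 FPKM in any sample and was listed at 0 in sorted replicates 2 and 3. Cysltr2 was thus the receptor detected in every sample. Lta4h, which makes leukotriene B4, was at 19.3 ± 0.440 FPKM in unsorted and 17.8 ± 1.10 in sorted samples, the only other gene of the list tested in that comparison. Among other cytokine receptors linked to itch, Il4ra rose by 0.73 on the log2 scale with sorting and Il1rap fell by 1.37.

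Of genes that act downstream of these receptors, 6 of 9 tested were higher with sorting and 2 lower, beside 18.8% and 27.7% of all genes. Among them, the channels Trpa1 (0.80) and Trpv1 (0.48), the G protein subunits Gna14 (1.12) and Gnaq (0.75) and the phospholipase Plcb3 (0.99), which Gq-coupled receptors engage, were higher on the log2 scale. Its relatives Plcb1 (-1.27) and Plcb4 (-1.15) were lower. The call of Trpv1 was near the threshold (adjusted p = 0.0476 by limma), and its sorted replicate 4, at 34.6 FPKM, lay within the unsorted range of 31.6 to 42.5 FPKM. Of 10 itch transmitter and Mrgpr genes tested, 9 rose, beside 18.8% of all genes, among them Mrgpra3 (2.08), Mrgprx1 (1.61), Nts (1.56), Nppb (1.42) and Sst (0.99). Sst had an adjusted p of 0.049, which missed the threshold without sorted replicate 2 (0.0515) and without any one of the unsorted samples (0.0665 to 0.117). From intact to unsorted DRG, Nppb fell as Il31ra and Cysltr2 did, by 1.36 on the log2 scale (adjusted p = 0.0132 by limma), while Sst (-0.51, adjusted p = 0.0989) and Nts (-0.72, adjusted p = 0.208) did not pass. Of the Mrgpr genes in that comparison, Mrgprb4 fell by 0.69 (adjusted p = 0.0033), while Mrgprb5 (-0.51, adjusted p = 0.0851), Mrgprd (0.13), Mrgpra3 (-0.01) and Mrgprx1 (-0.01) did not pass, and 2 of the 10 genes of the list were lower, beside 7.79% of all genes.

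The members differed in how they varied over the 4 sorted samples, a description made after the values were seen. Sorted replicate 1 was 2.88 times the mean of replicates 2 to 4 for Il31ra, 2.53 for Cysltr2, 2.04 for Osmr and 3.01 for Htr1f, against 1.24 for Hrh1 and 1.10 for Lpar3. For those 4 members it was at least 1.5 times the highest of the other sorted samples, where 1.21% of all genes tested (146 of 12038) were. The transmitters Sst (3.37 times the mean of replicates 2 to 4), Nppb (2.43) and Nts (2.22) and the kinase Jak1 (1.84), which signals for the interleukin-31 receptor, were high in the same sample. Other genes of the partner list were not as high there, with 1.26 for Il6st, 1.11 for Lifr and 1.10 for Stat3. Mrgpra3 (0.903), Mrgprx1 (1.15) and Mrgprd (1.18) were not. Lpar3 went the other way: sorted replicate 4 was 0.366 times the mean of replicates 1 to 3, as Mrgprd (0.498), Lpar5 (0.606), P2rx3 (0.608), Il6st (0.646), Plcb3 (0.657) and Gna14 (0.666) were also low there. A value at most 0.75 times the lowest of replicates 1 to 3 was found for 1 member, Lpar3, and for 4.67% of all genes. Sorted replicate 4 was the pool with the highest sums of red blood cell (15409 FPKM), satellite glia (205), Schwann cell (1200) and endothelial markers (75.8) and the lowest sums of pan-neuronal (3815) and small-diameter nociceptor markers (3132). The other sorted samples had sums of 1692 to 12556, 90.1 to 129, 519 to 590, 12.6 to 55.0, 4041 to 4902 and 3575 to 4229 FPKM for these lists, in the same order. The part of these cells in the spread was not tested.

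**Figure D4:**
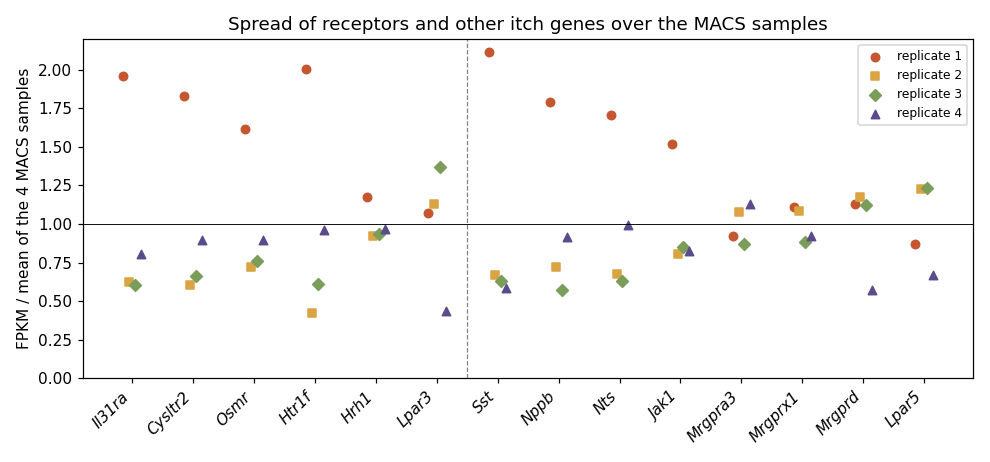
FPKM of each gene in the 4 MACS-sorted samples divided by their mean (vertical axis, linear), with the 6 receptors left of the dashed line and other itch-related genes right of it; symbols mark the replicates. Replicate 1 was high for Il31ra, Cysltr2, Osmr, Htr1f, Sst, Nppb, Nts and Jak1 (1.84 to 3.37 times the mean of the others), and replicate 4 was low for Lpar3 and Mrgprd (0.366 and 0.498 times).

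To find the genes most like each member, profiles of log2(FPKM + 0.1) over the 12 samples were centred on the mean of each gene and compared by the mean absolute difference, among 12253 genes. Of all of these, Cysltr2 was closest to Il31ra and Il31ra closest to Cysltr2, with a difference of 0.13 on the log2 scale, while the mean deviation of Il31ra from its own mean was 0.54. The second for both was Ptafr, the receptor for platelet-activating factor (0.18 and 0.19), followed by Stxbp2 (0.23) for Il31ra and Trim39 (0.23) for Cysltr2. Ptafr was a low gene, at 0.591, 0.391, 0.511 and 0.804 FPKM in unsorted and 2.40, 0.998, 1.09 and 1.36 FPKM in sorted samples. Osmr ranked 20 among genes near Il31ra, and its own nearest genes were Arid3a (0.16), Mst1r (0.17) and Sbno2 (0.18).

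Lpar3 was nearest to Mab21l1 (0.10), the angiotensin receptor Agtr1a (0.12) and Tmem79 (0.14). Agtr1a was at 18.4, 14.2, 17.6 and 7.95 FPKM in sorted samples 1 to 4, low in replicate 4 as Lpar3 was. Hrh1 was nearest to the transcription factor gene Insm1 (0.12), the itch receptor Mrgprx1 (0.20) and Ldb2 (0.20), all of which were even over the sorted samples. Insm1 was at 2.52 to 3.19 FPKM in unsorted and 7.73 to 8.65 FPKM in sorted samples. For Htr1f the nearest genes were Ptprk (0.23), 2610008E11Rik (0.23) and Rad18 (0.23), beside its own mean deviation of 0.38. These distances describe 12 samples that share groups, depth and scaling.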

How the data were processed

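RNA-seq was available for 12 samples in 3 groups of 4. The authors aligned reads to mm10 with TopHat2, merged lanes with SAMtools and estimated FPKM with Cufflinks 2.1.1, and the deposited values are FPKM, 1 for each of 24490 genes in each sample. Whether strand was used is not given in the sources used here. Counts were not used here. Groups came from the sample titles.

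For each comparison, limma 3.58.1 was run in R 4.3.3 over its 8 samples, with a trend on intensity. The values were log2(FPKM + 0.1), genes averaging below 1 FPKM over those samples were left out, and p-values had Benjamini-Hochberg adjustment over all genes tested. A gene changed at an adjusted p under 0.05. The paper's CuffDiff needs aligned reads and was replaced. Fold changes with a standard error are on the log2(FPKM + 0.1) scale, which understates low genes. Ratios and single genes were compared by exact two-sided permutation tests in scipy 1.17.1, and ratio p-values were adjusted over 12 tests. Depth was inferred from the step between low FPKM values, with fragments of 150 bases assumed, and no interval was drawn from it. The procedure was tested on simulated data.

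The members, pathway lists and marker lists were chosen with earlier results of these data known. The genes named were every member in every comparison, the partner or relative of each member, the genes of each pathway list with the largest changes with sorting, and the 3 genes with the nearest profiles. Other pathway genes, such as those set beside the members over the sorted samples, were chosen after their values were seen. Coordinates are those of the files, counted from 1. Promoter windows are from RefSeq on GRCm38.p6, and all 6 members were matched. Alternatives covered the pseudocount, the filter, the trend, the samples fitted, a replicate block, 4 scalings, leaving out samples and averaging unsorted samples 1 and 2.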

Additional observations from a re-analysis of the deposited data

Results flagged for a closer look

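Il31ra in MACS-sorted replicate 1 was at 31.0 FPKM, while the other sorted samples were at 9.59, 9.91 and 12.8 FPKM, so its gap to the nearest sample, as a share of the range, exceeded Dixon's 95% critical value for 4 samples. Of the 18 groups of 4 samples examined, 6 receptors in 3 preparations, it was the only one past this limit, and chance alone passes it in about 1 of 20 groups. Without this sample, Il31ra was still higher in sorted than in unsorted samples, by 1.04 on the log2 scale (adjusted p = 3.4e-04 by limma).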

How the results depend on the processing

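Il31ra, Osmr, Hrh1 and Cysltr2 were higher in sorted than in unsorted samples, and Il31ra and Cysltr2 lower in unsorted than in intact samples, with an adjusted p under 0.05 by limma under every alternative that could be run. The ranges were 0.91 to 1.75, 0.95 to 1.49, 1.03 to 1.98 and 0.74 to 1.46 on the log2 scale for the first 4, and -1.27 to -0.89 and -1.14 to -0.74 for the last pair. A filter at 5 FPKM left Hrh1 and Htr1f untested, and so gave them no value. Values of Hrh1 and Htr1f rest on few fragments and have the least support from depth. The causes of the changes given here were not tested.

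Lpar3, sorted against unsorted, passed the threshold with a pseudocount of 1 (0.78, adjusted p = 0.0489), a filter at 5 FPKM (0.79, 0.0476), all 12 samples (0.79, 0.0300), median-ratio scaling (0.86, 0.0352), quantile normalization (0.83, 0.0298), red blood cell genes removed (0.83, 0.0342), without both sorted samples 3 and 4 (1.05, 2.2e-05) and, added after seeing the data, without both 1 and 4 (1.22, 3.5e-05). Leaving out 1 sample gave 0.60 to 1.15, and only the fit without sorted replicate 4 passed. Against intact samples it passed with a pseudocount of 1 (0.87, 0.0490), all 12 samples (0.89, 0.0177), median-ratio scaling (0.95, 0.0349), quantile normalization (0.87, 0.0346), red blood cell genes removed (0.91, 0.0338), without sorted 3 and 4 (1.14, 0.0011) and without 1 and 4 (1.32, 8.1e-04), and leaving out 1 sample gave 0.70 to 1.25. Osmr, unsorted against intact, missed it with all 12 samples (-0.35, 0.269), with red blood cell genes removed (-0.37, 0.0890) and with unsorted samples 1 and 2 averaged (-0.37, 0.0548), and leaving out 1 sample gave -0.41 to -0.29. Osmr, sorted against intact, missed it when scaled to pan-neuronal genes (0.56, 0.0632), and the count of members higher there went from 2 to 1 with that scaling and with a filter at 5 FPKM.

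Deviations of same-numbered samples from their group means correlated at -0.0406 to 0.0487 for sorted and unsorted, at -0.143 to 0.0514 for unsorted and intact and at -0.0623 to 0.0671 for sorted and intact samples. The labels do not say whether same-numbered samples were paired, and these correlations over all genes cannot decide it. With the replicate number as a block, Lpar3 passed for sorted against unsorted (0.79, 0.0289) and against intact samples (0.89, 0.0471), and Osmr missed the threshold for unsorted against intact samples (-0.35, 0.0578); no other member crossed the threshold with the block.

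The sign reversed only for differences that had not passed the test. Without both sorted samples 1 and 4, Htr1f was at -0.26 against unsorted and -0.35 against intact samples, Il31ra at -0.090 and Cysltr2 at -0.13 against intact samples, and Jak1 at -0.18 against unsorted samples. Without sorted replicate 1 alone, Htr1f was at -0.062 against intact samples, Jak1 at -0.18 against unsorted samples, and the ratio of Il31ra to Osmr differed by -0.0025 between sorted and unsorted samples. Scaling to pan-neuronal genes gave -0.18 for Lpar3 in unsorted against intact samples, -0.024 for Cysltr2 and -0.038 for Htr1f in sorted against intact samples, and -0.089 and -0.12 for Jak1 in sorted against unsorted and unsorted against intact samples. Quantile normalization gave 0.065 for Htr1f in unsorted against intact samples, and leaving out 1 sample at a time gave Lpar5, in that comparison, -0.32 to 0.036. The same range was -0.062 to 0.66 for Htr1f in sorted against intact samples, -0.18 to 0.12 for Jak1 and -0.0025 to 0.20 for the ratio of Il31ra to Osmr in sorted against unsorted samples. The ratio of Cysltr2 to Cysltr1 in unsorted against intact samples passed with a pseudocount of 1 (-0.71, adjusted p = 0.0429). Tests of ratios with 1 sample left out, or over 4 sign flips, cannot go below the threshold (0.125 for the flips), so their values alone were compared.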
